A study of Mus musculus with 4 samples.

Results

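The cells described here are chemokine-high neutrophils, a class of 856 cells among 9313 neutrophils and 24761 cell barcodes in CD45+ leukocytes from transplanted mouse left lungs. CD45 is the surface protein shared by all leukocytes. Barcodes with 200 or more genes and no more than 10% mitochondrial UMIs were kept, 24291 in all (a UMI, or unique molecular identifier, tags 1 captured RNA molecule). A neutrophil had S100a8 and S100a9 at 1% or more of its UMIs, at least 1 Csf3r UMI, at most 2 UMIs of Ace, Adgre4 and Cd300e together and none of Cd3e or Cd79a. A neutrophil was chemokine-high with 20 or more UMIs of Ccl3, Ccl4 and Cxcl3 together, under 5 of Ifit1, Ifit3 and Rsad2 and under 3 of Fnip2, Cc2d2b and Pnpla7. Chemokine-high cells numbered 294 of 2930 neutrophils in the RvD1 recipient library, 153 of 3231 in the vehicle recipient library, 324 of 1836 in the RvD1 donor library and 85 of 1316 in the vehicle donor library.

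Left lungs were transplanted between B6 mice, after storage for 60 min at 4 °C and 45 min at 28 °C, and were collected 2 h later. Mice received intravenous resolvin D1 (RvD1, a lipid mediator derived from docosahexaenoic acid), 200 ng each in 200 µL of ethanol at 1%, or the ethanol vehicle just before transplantation. The treatment protocol in the labels names the recipient mice as those treated, while the series' design text speaks of the grafts. The labels call the cells recipient or donor leukocytes, and the sources used here do not say how the origins were told apart. The groups are RvD1 recipient, vehicle recipient, RvD1 donor and vehicle donor. Each group is 1 library made from 2 pooled lungs, so that no difference between groups has a replicate check and no p-value is given. All groups share the same storage injury, and no uninjured lung was among them.

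Neutrophils arrive within hours in a reperfused lung and can themselves release chemokines. Ccl3 and Ccl4 encode CC chemokines, which draw monocytes, T cells and, in mice, neutrophils. Cxcl3, like its neighbours Cxcl1 and Cxcl2, encodes a ligand of CXCR2, the receptor through which neutrophils recruit further neutrophils. Transcription of such genes is turned on quickly by NF-kB, a family of factors held inactive by inhibitors such as the Nfkbia product. Only RNA was measured here, so release of the proteins is not shown.

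In GENCODE M21 on GRCm38, Ccl3 lies on chromosome 11 at 83647844 to 83649355 on the minus strand, and Ccl4 at 83662584 to 83664683 on the plus strand, with 13228 bases between the genes. Cxcl3 lies on chromosome 5 at 90786103 to 90789600, and Cxcl2 at 90903871 to 90905938, both on the plus strand and 114270 bases apart. The promoter windows of Ccl3 and Cxcl3 (genes of the rule) and of Cxcl2 (the only described chemokine outside the rule that was called higher) are shown for where the letters of an NF-kB motif lie in each. Each runs from 250 bases before to 50 bases after the start in RefSeq, on GRCm38.p6. They lie at chr11:83649329-83649628 on the minus strand for Ccl3, chr5:90785851-90786150 on the plus strand for Cxcl3 and chr5:90903649-90903948 on the plus strand for Cxcl2. Capitals mark matches to GGGNNTTTCC on either strand, where N is any base.
Ccl3: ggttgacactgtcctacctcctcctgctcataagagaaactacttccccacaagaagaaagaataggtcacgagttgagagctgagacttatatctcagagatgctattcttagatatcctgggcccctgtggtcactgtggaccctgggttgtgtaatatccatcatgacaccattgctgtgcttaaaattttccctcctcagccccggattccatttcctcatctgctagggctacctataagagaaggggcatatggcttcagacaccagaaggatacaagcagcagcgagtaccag
Cxcl3: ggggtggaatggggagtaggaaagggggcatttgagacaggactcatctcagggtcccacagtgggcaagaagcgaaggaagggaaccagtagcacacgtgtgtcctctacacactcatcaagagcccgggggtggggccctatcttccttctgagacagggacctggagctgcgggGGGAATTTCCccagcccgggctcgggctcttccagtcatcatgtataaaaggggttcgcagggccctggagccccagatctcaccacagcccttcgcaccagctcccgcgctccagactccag
Cxcl2: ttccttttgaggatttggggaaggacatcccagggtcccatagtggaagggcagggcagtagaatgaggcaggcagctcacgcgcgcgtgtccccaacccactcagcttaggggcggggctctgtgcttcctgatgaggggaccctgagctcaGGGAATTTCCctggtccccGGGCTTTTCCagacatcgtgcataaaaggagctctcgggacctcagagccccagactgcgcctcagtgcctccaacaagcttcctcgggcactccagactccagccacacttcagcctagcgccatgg
The Cxcl3 window holds 1 match, GGGAATTTCC at -73 to -64 counted with the start as 0, and the Cxcl2 window holds 2, GGGAATTTCC at -97 to -88 and GGGCTTTTCC at -78 to -69. No match of these letters lies in the Ccl3 window. GGGNNTTTCC is found in 535 of 32851 RefSeq promoter windows of this length, or 1.63%, and GGGAATTTCC in 29, or 0.0883%. A match of letters is a description and not a site shown to be bound.

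The label was checked against RNA of other leukocytes. The rule itself required S100a8, S100a9 and Csf3r, so the check rests on the other 7 neutrophil markers (Cxcr2, Retnlg, Mmp9, Ly6g, G0s2, Il1r2 and Trem1). All 7 were detected in the chemokine-high cells of every library. Their summed level was 15537 CPM (UMIs per 1000000 UMIs of the class) in RvD1 recipient, 19102 in vehicle recipient, 10569 in RvD1 donor and 7808 in vehicle donor chemokine-high cells, against 15597, 17178, 10312 and 8366 CPM in the other neutrophils of the same libraries. Classical monocyte markers were lower in chemokine-high cells in all 4 libraries, at 96.7 to 190.9 against 163 to 370 CPM, and so were alveolar macrophage markers, at 13.5 to 40.8 against 20.3 to 382 CPM. The alveolar list includes Chil3, also among the granule protein genes below, which was lower at a mean absolute log2 ratio of 2.91. The part of Chil3 in the alveolar sums was not tested. Nonclassical monocyte markers, 3 of which the rule limited, were at 319, 304, 323 and 383 CPM in chemokine-high cells. The libraries were RvD1 recipient, vehicle recipient, RvD1 donor and vehicle donor, and other neutrophils were at 316, 263, 347 and 331 CPM. The part of each gene in these sums was not tested, so that they are not read as RNA of monocytes. The C1q macrophage list was at 167, 159, 206 and 313 CPM in the chemokine-high cells of those libraries, against 231, 194, 272 and 204 CPM in other neutrophils, and 1 vehicle donor cell held 36.8% of its UMIs. Dendritic cell markers were at 504 CPM in RvD1 donor chemokine-high cells, against 154 CPM in other neutrophils, and 1 cell held 70.6% of these UMIs. Basophil or mast cell markers were at 46.9 CPM in RvD1 donor chemokine-high cells, against 0.59 CPM in other neutrophils, with all 85 UMIs in 2 cells. The part of such cells in the results was not tested. Erythroid markers were at most 2.1 CPM. Scrublet, a doublet caller, marked 3 of the RvD1 recipient, 2 of the vehicle recipient, 5 of the RvD1 donor and 0 of the vehicle donor chemokine-high cells. Whole libraries held 42199775 to 61294707 UMIs, and the chemokine-high cells held 1624031, 924436, 1812769 and 485660 of them in RvD1 recipient, vehicle recipient, RvD1 donor and vehicle donor libraries. The median depth per cell was 5148 to 5458 UMIs in chemokine-high cells and 4899 to 5400.5 in other neutrophils. Between 4 and 15 barcodes were shared by a pair of libraries, and none was chemokine-high in both.

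The chemokines of the rule are described with no test, since they chose the cells. Ccl3 was present in 57.1% of RvD1 recipient, 59.5% of vehicle recipient, 76.2% of RvD1 donor and 81.2% of vehicle donor chemokine-high cells, with medians of 1, 1, 4.5 and 6 UMIs per cell. Ccl4 was present in 65.6, 68.6, 72.2 and 70.6% of them, with medians of 10, 12, 15 and 20 UMIs, in the same libraries. Cxcl3 was present in 83.3% of RvD1 recipient, 81.7% of vehicle recipient, 88.6% of RvD1 donor and 90.6% of vehicle donor chemokine-high cells, with medians of 22, 14, 23 and 22 UMIs. By the share of cells with a UMI, Ccl3 was thus the gene with the widest gap between origins, low in both recipient libraries and higher in both donor libraries. By median UMIs, Cxcl3 was lowest in the vehicle recipient library. The sum of the 3 genes had a median of 36 UMIs and a maximum of 275 in RvD1 recipient, 33 and 182 in vehicle recipient, 51 and 432 in RvD1 donor and 48 and 199 in vehicle donor cells. These UMIs were 0.915, 0.710, 1.24 and 1.15% of all UMIs of the chemokine-high cells in those libraries, and 0.0876, 0.149, 0.177 and 0.315% of those of the other neutrophils.

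Ccl3, Ccl4 and Cxcl3 were not spread evenly over the cells. All 3 genes were detected in 36.7% of RvD1 recipient, 34.0% of vehicle recipient, 51.5% of RvD1 donor and 56.5% of vehicle donor chemokine-high cells. Cxcl3 made up at least 90% of the UMIs of the 3 genes in 32.3, 22.9, 22.5 and 18.8% of the cells of those libraries, and Ccl3 with Ccl4 made up at least 90% in 26.5, 26.8, 20.1 and 15.3%. Many chemokine-high cells thus drew their UMIs of the 3 rule genes almost entirely from Cxcl3, or almost entirely from Ccl3 and Ccl4. Over all neutrophils of a library, Ccl3 and Ccl4 had a Spearman rank correlation of 0.36 to 0.49 and Ccl4 and Cxcl3 one of 0.24 to 0.40, across 1316 to 3231 cells that share a library. Within the chemokine-high cells, chosen on the sum, the rank correlation between Ccl4 and Cxcl3 was -0.37 in RvD1 recipient, -0.39 in vehicle recipient, -0.24 in RvD1 donor and 0.05 in vehicle donor cells.

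**Figure D1:**
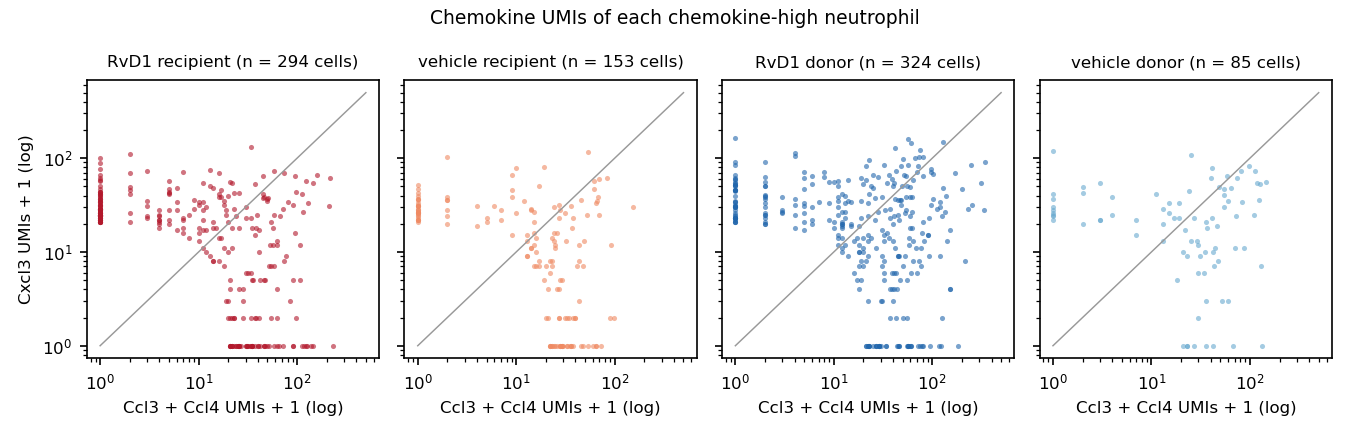
Each point is 1 chemokine-high neutrophil, with UMIs of Ccl3 and Ccl4 plus 1 on the horizontal and UMIs of Cxcl3 plus 1 on the vertical axis (both log axes), 1 panel a library. The grey line marks equal values, and cells along the lower edge have almost no Cxcl3 and those along the left edge almost no Ccl3 or Ccl4.

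Cells in which Ccl3 and Ccl4 made up over 50% of the chemokine UMIs were set against those led by Cxcl3, a split chosen after the data were seen. Of 1355 genes outside the rule with at least 50 UMIs over both kinds in each library, 1 (0.0738%) was at least 1.5-fold higher in all 4 libraries and 0 were lower. The gene was Hexa, a lysosomal hexosaminidase subunit, at 54.3 against 21.8 CPM in RvD1 recipient, 97.6 against 39.3 in vehicle recipient, 49.1 against 27.3 in RvD1 donor and 160 against 59.9 in vehicle donor cells, on 11 to 52 UMIs a class, which is under a minimum of 100 in all 4 libraries.

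The cut of 20 UMIs lies in a continuous range. Just outside it, with 15 to 19 UMIs, were 82 RvD1 recipient, 41 vehicle recipient, 67 RvD1 donor and 10 vehicle donor neutrophils that met the other conditions. Just inside, with 20 to 24 UMIs, were 73, 33, 41 and 12 cells of the same libraries. Median sums were 16 to 18 UMIs outside and 22 UMIs inside. Free RNA in the droplets was gauged by Cxcl3 in B and T cells, which are not known as its sources. At least 1 Cxcl3 UMI was found in 36.6% of RvD1 recipient, 41.1% of vehicle recipient, 51.8% of RvD1 donor and 53.3% of vehicle donor neutrophils, against 0.651, 1.06, 2.29 and 2.27% of B cells and 1.20, 2.22, 3.21 and 3.23% of T cells. Median depths were 4931 to 5401 UMIs in neutrophils, 4702 to 6685 in B cells and 7915 to 9964 in T cells. A sum of 20 or more UMIs of the 3 chemokines was found in 0, 0, 1 and 5 B cells, out of 921, 851, 262 and 441 B cells in those libraries. T cells with such a sum numbered 1, 0, 2 and 7, out of 1253, 541, 655 and 804. The Cxcl3 shares in B and T cells were higher in both donor libraries, as were those in neutrophils, and their part in the difference between origins was not tested.

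Chemokine-high cells made up a smaller share of recipient than of donor neutrophils. The share was 10.0% in the RvD1 recipient library (exact 95% binomial interval 8.97 to 11.2%), 4.74% in the vehicle recipient library (4.03 to 5.53%), 17.6% in the RvD1 donor library and 6.46% in the vehicle donor library. The log2 ratio of recipient over donor was -0.81 under RvD1 and -0.45 under vehicle, and it was below 0 in every alternative tried. At a cut of 10 UMIs it was -0.13 under vehicle, with an interval of -0.44 to 0.17 that includes 0. RvD1 over vehicle gave a log2 ratio of 1.08 in recipient cells (95% interval 0.81 to 1.36) and 1.45 in donor cells (1.12 to 1.78). These intervals cover counting error only.

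The Fnip2 condition of the rule decides the RvD1 over vehicle value. Neutrophils that failed it (3 or more UMIs of Fnip2, Cc2d2b and Pnpla7) were 8.74% of RvD1 recipient, 54.4% of vehicle recipient, 25.4% of RvD1 donor and 70.1% of vehicle donor neutrophils, and it removed 16.4, 67.1, 29.7 and 75.9% of the cells with 20 or more chemokine UMIs. Without the Fnip2 condition the shares were 11.9% in RvD1 recipient, 13.7% in vehicle recipient, 25% in RvD1 donor and 27.1% in vehicle donor libraries, and the RvD1 over vehicle log2 ratios were -0.20 and -0.11 in recipient and donor cells. Among neutrophils that met both the Ifit and the Fnip2 condition, the chemokine-high share was 11.3% in RvD1 recipient, 10.7% in vehicle recipient, 24.4% in RvD1 donor and 22.7% in vehicle donor cells. RvD1 over vehicle was then 0.075 in recipient and 0.11 in donor cells on the log2 scale, and recipient over donor was -1.11 under RvD1 and -1.08 under vehicle. The RvD1 libraries were made with Cell Ranger 7.0.1 and the vehicle libraries with 6.1.1, per the file headers, and software version and treatment cannot be told apart. The chemokine sum of each cell was also thinned to a depth of 2000 UMIs with a cut of 8, which left out 58, 2, 31 and 9 shallower neutrophils. This gave shares of 10.2% in RvD1 recipient, 4.34% in vehicle recipient, 18.5% in RvD1 donor and 6.43% in vehicle donor cells. The other conditions, that on Fnip2 among them, were kept at full depth, so their dependence on depth was not tested.

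**Figure D2:**
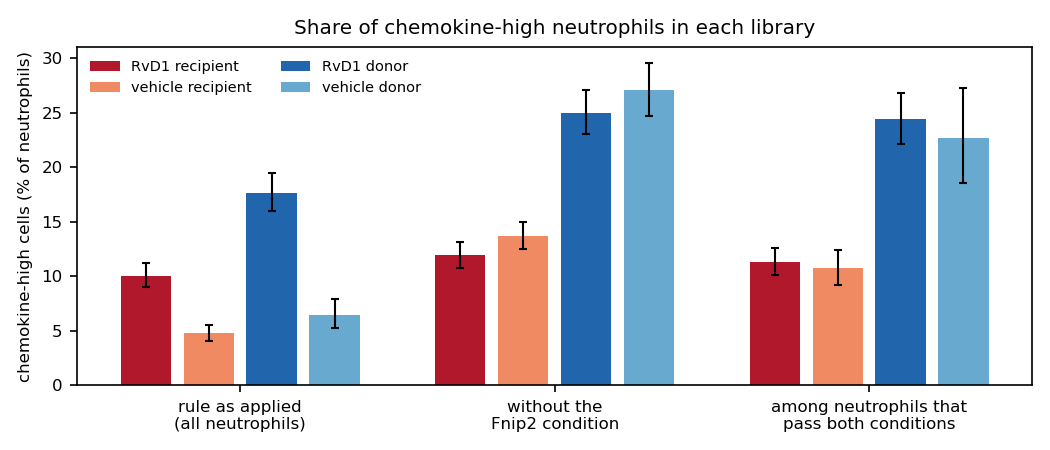
Bars give chemokine-high cells as a percentage of neutrophils in each of the 4 libraries under 3 definitions, with exact 95% binomial intervals as error bars. RvD1 bars stand above vehicle bars under the rule as applied, at 10.0 against 4.74% in recipient and 17.6 against 6.46% in donor cells, and lie near them under the other definitions.

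What else the chemokine-high cells expressed was described from the sum of UMIs per class and library, as the CPM of chemokine-high cells over that of all other neutrophils in the same library. A gene was called when this ratio was at least 1.5-fold in 1 direction in all 4 libraries. Of 4804 genes with at least 100 UMIs in each library, 26 (0.541%) were called higher and 77 (1.6%) lower, leaving out the genes of the rule. At 2-fold, 5 genes (0.104%) were higher and 5 (0.104%) lower. Since the same cells were chosen on their chemokine UMIs, these counts carry no test. The median log2 ratio of all genes was -0.16 in RvD1 recipient, -0.13 in vehicle recipient, -0.20 in RvD1 donor and -0.20 in vehicle donor libraries. Centred on that median, 60 genes were higher and 24 lower, and all of the 15 higher and 15 lower genes ranked by size kept their call.

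The genes called higher than in all other neutrophils included Cxcl2, Il1a and Il1b. Cxcl2, a CXCR2 ligand like Cxcl3, was at 10415 CPM in RvD1 recipient, 8641 in vehicle recipient, 13017 in RvD1 donor and 13248 in vehicle donor chemokine-high cells, against 4149, 3659, 5463 and 4971 CPM in the other neutrophils. Its log2 ratios were 1.33 (95% interval 1.30 to 1.35), 1.24, 1.25 and 1.41 in those libraries. Cxcl2 was thus more than 2-fold higher everywhere, in cells that were not chosen on it. Il1a, which encodes the alarmin interleukin 1 alpha, was at 153 CPM in RvD1 recipient, 199 in vehicle recipient, 268 in RvD1 donor and 391 in vehicle donor chemokine-high cells, against 59.0, 98.3, 56.7 and 142 CPM in other neutrophils. Il1a was seen in 24.8, 29.4, 30.2 and 42.4% of chemokine-high cells and in 11.5, 18.6, 12.7 and 24.7% of other neutrophils in the same libraries. Most chemokine-high cells therefore had no Il1a UMI at this depth, and RvD1 donor cells had the widest gap, with a log2 ratio of 2.24. Il1b, the inducible interleukin 1 of neutrophils, had log2 ratios of 0.66, 0.93, 0.73 and 1.08 in RvD1 recipient, vehicle recipient, RvD1 donor and vehicle donor libraries. Il1rn, the secreted antagonist of both, was higher in all 4 but was not called, at 0.94, 0.32, 0.66 and 0.47.

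Cish, Socs3 and Csf3 were among the genes with the widest ratios. Cish, a STAT-induced inhibitor of the SOCS family, was at 42.5 CPM in RvD1 recipient, 53.0 in vehicle recipient, 57.4 in RvD1 donor and 92.7 in vehicle donor chemokine-high cells, against 13.9, 13.2, 19.95 and 29.7 CPM in other neutrophils. Its log2 ratios were 1.61 (1.19 to 2.01), 2.01 (1.53 to 2.46), 1.52 (1.16 to 1.88) and 1.64 (1.14 to 2.11), on 45 to 104 UMIs a library. The levels were low, and the intervals lie above 1 in every library. Socs3, the inhibitor of signalling by interleukin 6 and G-CSF receptors, was at 611, 538, 424 and 665 CPM in the chemokine-high cells of RvD1 recipient, vehicle recipient, RvD1 donor and vehicle donor libraries, against 282, 194.5, 233 and 246 CPM in other neutrophils. Csf3, which encodes G-CSF itself, had log2 ratios of 2.82, 0.76, 2.40 and 2.05, but its 79, 29, 61 and 33 UMIs came from 16, 9, 16 and 10 cells, and 1 cell held 27.3 to 37.9% of them.

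Other genes called higher had varied roles. Egr1, an immediate early zinc finger factor on chromosome 18, was at 1451 CPM in RvD1 recipient, 1593 in vehicle recipient, 1251 in RvD1 donor and 1987 in vehicle donor chemokine-high cells, against 695, 772, 707 and 1034 CPM in other neutrophils. Its log2 ratios were 1.06, 1.05, 0.82 and 0.94, close to one another across origins and treatments. Ier3, an NF-kB target that limits cell death, had log2 ratios of 0.84, 0.84, 0.86 and 0.96, and Plaur, the urokinase receptor, 0.86, 0.69, 0.84 and 0.99. Ptgs2, the inducible cyclooxygenase, was at 763 CPM in RvD1 recipient, 553 in vehicle recipient, 463 in RvD1 donor and 710 in vehicle donor chemokine-high cells, against 467, 302, 273 and 295 CPM in other neutrophils. Rhoh, a gene of blood cells, had log2 ratios of 1.25, 1.34, 1.42 and 1.77 in RvD1 recipient, vehicle recipient, RvD1 donor and vehicle donor libraries. Cdkn1a, the cell cycle inhibitor p21, followed at 1.09, 1.01, 0.96 and 1.21, and Tgm1, a transglutaminase with only 21 to 88 UMIs a library, at 1.47, 1.04, 1.03 and 1.10. Xbp1, a factor of the unfolded protein response, Csrnp1, a nuclear protein, and G0s2, an inhibitor of the lipase ATGL, completed the 15, with log2 ratios of 0.72 to 1.05. Of these 15 genes, 13 had a promoter window and 1, Cxcl2, held a match to GGGNNTTTCC. The 10 windows found for the 15 genes ranked as lower held 0, and 1.63% of 32851 RefSeq windows held one. Nothing is read from counts this small.

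The genes ranked as lower included Cd101, a marker of mature mouse neutrophils, and also the granule gene Ltf. The maturity of the cells was not tested. Cd101, a surface protein of the immunoglobulin superfamily, was at 53.6 CPM in RvD1 recipient, 75.7 in vehicle recipient, 37.5 in RvD1 donor and 37.1 in vehicle donor chemokine-high cells, against 138.5, 179, 97.2 and 98.0 CPM in other neutrophils. Its log2 ratios of -1.37, -1.24, -1.37 and -1.40 barely differed between libraries. Rassf3, a Ras association domain protein, had log2 ratios of -1.0, -1.46, -1.18 and -1.17, and Mapk14, the stress kinase p38 alpha, -0.97, -0.88, -0.93 and -0.85. Rgs2, which shuts off G protein signals, was at -0.79, -0.90, -0.91 and -1.10, and Sephs2, an enzyme of selenoprotein synthesis, at -1.47, -0.93, -1.05 and -1.30. Ltf, the specific granule protein lactoferrin, had 8, 2, 17 and 8 UMIs in all chemokine-high cells of RvD1 recipient, vehicle recipient, RvD1 donor and vehicle donor libraries, or 4.9, 2.2, 9.4 and 16.5 CPM, against 24.4, 8.6, 233 and 370 CPM in other neutrophils. Of the other genes ranked as lower, Rab11fip4, Ermp1, Sash3, Tmem40, Sdccag8 and Uqcrc2 had 5 or fewer UMIs in the vehicle donor chemokine-high cells, and Sec14l1 had 11. For Plcb1 (phospholipase C beta) and Npc1 (lysosomal cholesterol export) even the direction depended on which neutrophils they were set against. Against neutrophils that met the Ifit and Fnip2 conditions, Plcb1 had log2 ratios of -1.89, -0.97, -0.49 and 2.36 in RvD1 recipient, vehicle recipient, RvD1 donor and vehicle donor libraries, where the vehicle recipient value sets its 0 UMIs to the floor of 3. Npc1 had -0.64, -0.16, 0.06 and 0.19.

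**Figure D3:**
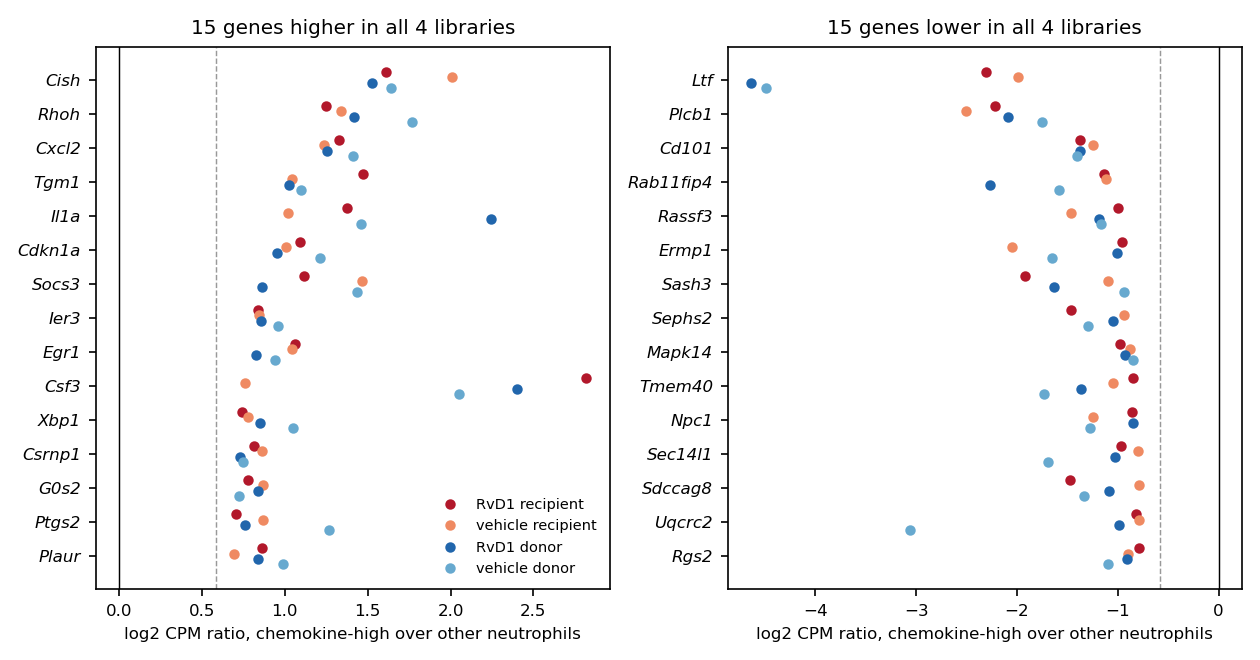
Points give the log2 CPM ratio of chemokine-high over other neutrophils in each of the 4 libraries for the 15 genes ranked as higher (left) and the 15 ranked as lower (right). The dashed line marks 1.5-fold, and every point lies beyond it, as the call requires.

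Set against neutrophils that met the Ifit and Fnip2 conditions, in place of all others, 55 of 2593 genes (2.12%) were higher and 47 (1.81%) lower. Of the 26 genes called higher against all other neutrophils, 16 were called in both, and of the 77 lower ones 25 were. Cxcl2 then had log2 ratios of 1.43 in RvD1 recipient, 1.36 in vehicle recipient, 1.41 in RvD1 donor and 1.85 in vehicle donor libraries, and Il1a 1.44, 1.69, 2.16 and 2.32. Cd101 had -1.40, -1.38, -1.41 and -1.65. For these 3 genes the vehicle donor values moved most, in the library where 70.1% of neutrophils failed the Fnip2 condition. Il1b did not keep its call here, since it fell short of the required fold in the vehicle recipient library. Chemokine-high cells of that library had Il1b at 8566 CPM. Neutrophils that met both conditions were at 5778, 5781 and 6971 CPM with 0 to 4, 5 to 9 and 10 to 19 chemokine UMIs.

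Over all gene lists together, 13 of 279 described genes (4.66%) were higher and 4 (1.43%) lower, beside 0.541% and 1.6% of all genes, and nothing is read from this since the cells were chosen within the same contrast. Of 13 described cytokines and antagonists, 3 were higher (Il1a, Il1b and Csf3) and 0 lower, with median log2 ratios of 0.66 in RvD1 recipient, 0.35 in vehicle recipient, 0.52 in RvD1 donor and 0.54 in vehicle donor libraries. Of 27 NF-kB feedback and early response genes, 3 were higher (Ier3, Ptgs2 and Plaur), with medians of 0.54, 0.29, 0.46 and 0.44. All medians of these lists lay above the median of all genes, which was below 0. Of 4 described chemokines outside the rule (Ccl5, Ccl6, Ccl9 and Cxcl2) only Cxcl2 was called, and 3 of 20 immediate early genes were higher (Junb, Egr1 and Egr2). Among 13 genes of mRNA decay and phosphatase feedback, Socs3 was higher and Zfp36l2, which binds AU-rich messages for decay, was lower. Hk2, the hexokinase of activated cells, was higher among 23 glycolysis and hypoxia genes, Pecam1, an adhesion protein, among 18 adhesion genes, and Ptgs2 among 7 eicosanoid enzymes. Against neutrophils that met the Ifit and Fnip2 conditions, no glycolysis and hypoxia gene and no eicosanoid enzyme was called higher, so neither Hk2 nor Ptgs2 was. Pecam1 was at 26.5 CPM in RvD1 recipient, 55.2 in vehicle recipient, 54.6 in RvD1 donor and 204 in vehicle donor chemokine-high cells, against 14.4, 34.1, 20.1 and 80.7 CPM in other neutrophils.

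In the granule and inflammasome lists, only lower genes were called against all other neutrophils. Of 15 described granule protein genes 0 were higher and 2 lower (Ltf and Ngp), with medians of -0.43 in RvD1 recipient, -0.01 in vehicle recipient, -0.60 in RvD1 donor and -1.28 in vehicle donor libraries, of which the vehicle recipient median lay above that of all genes. Gsdme, a pore-forming gasdermin, was lower among 6 inflammasome genes, whose medians were -0.43, -0.55, -0.44 and -0.12 in the same order of libraries. Nlrp3 was higher on average without being called, at a mean absolute log2 ratio of 0.80, and Pycard, Nek7, Txnip and Aim2 were lower. Against neutrophils that met the Ifit and Fnip2 conditions, 1 inflammasome gene was called higher and 1 lower. No gene was called against all other neutrophils among 18 antioxidant, haem and iron genes, 15 survival and death genes, 27 neutrophil receptors, 21 interferon-stimulated genes outside the rule, 10 heat shock genes, 13 MHC class I genes and 30 respiratory chain genes. Against neutrophils that met the Ifit and Fnip2 conditions, 3 survival genes and 2 receptors were higher and 1 antioxidant gene was lower. Among survival genes, Bcl2a1a, Bcl2a1b and Bcl2a1d were higher than in all others on average, at mean absolute log2 ratios of 0.91, 0.75 and 0.73. Bax was lower, at 0.58. Tnf, the cytokine, was higher in all 4 libraries without reaching the call, with log2 ratios of 1.00, 0.35, 0.85 and 0.54 in RvD1 recipient, vehicle recipient, RvD1 donor and vehicle donor libraries. Nfkbia, the NF-kB inhibitor, had 0.67, 0.54, 0.84 and 0.62 and just missed it in vehicle recipient cells. Cxcr2, the receptor for Cxcl2 and Cxcl3, had 0.14, 0.06, 0.31 and 0.27, and Cxcr4, the bone marrow homing receptor, -0.33, -0.48, -0.33 and -0.31.

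Levels of several genes were followed over the chemokine load. Neutrophils that met the Ifit and Fnip2 conditions were placed in 6 bins of 0 to 4, 5 to 9, 10 to 19, 20 to 39, 40 to 79 and 80 or more UMIs of the 3 chemokines. In RvD1 recipient cells Cxcl2 was at 3358, 5415, 6421, 10292, 9616 and 12288 CPM over the bins, and in vehicle recipient cells at 3073, 4631, 5287, 8268, 7620 and 13431 CPM. In RvD1 donor cells Cxcl2 was at 3923, 6694, 7492, 9600, 13629 and 16662 CPM, and in vehicle donor cells at 2887, 5354, 8720, 8585, 11897 and 19742 CPM. Cxcl2 climbed already below the cut of 20 UMIs and went on above it. The top bin of the vehicle recipient library held only 16 cells, and its Cxcl2 level in the bin of 40 to 79 UMIs was 7620 CPM. Il1rn was lowest in the lowest bin and highest in the highest in every library, at 911.5 and 2894 CPM in RvD1 recipient, 818 and 2505 in vehicle recipient, 877 and 2126 in RvD1 donor and 747 and 2773 in vehicle donor cells. Nfkbia was at 1099 and 2057 CPM in the lowest and highest bins of RvD1 recipient, 1249 and 2400 of vehicle recipient, 1448 and 3699 of RvD1 donor and 1690 and 4252 of vehicle donor cells. Not every gene followed the load evenly. Ptgs2 in RvD1 recipient cells was at 443, 448, 625, 884, 706 and 466 CPM over the bins, back near its lowest value in the top bin. The granule protease gene Mmp9 ran the other way, at 469.5 and 231 CPM in RvD1 recipient, 657.5 and 386 in vehicle recipient, 413 and 162 in RvD1 donor and 506 and 198.5 in vehicle donor cells.

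**Figure D4:**
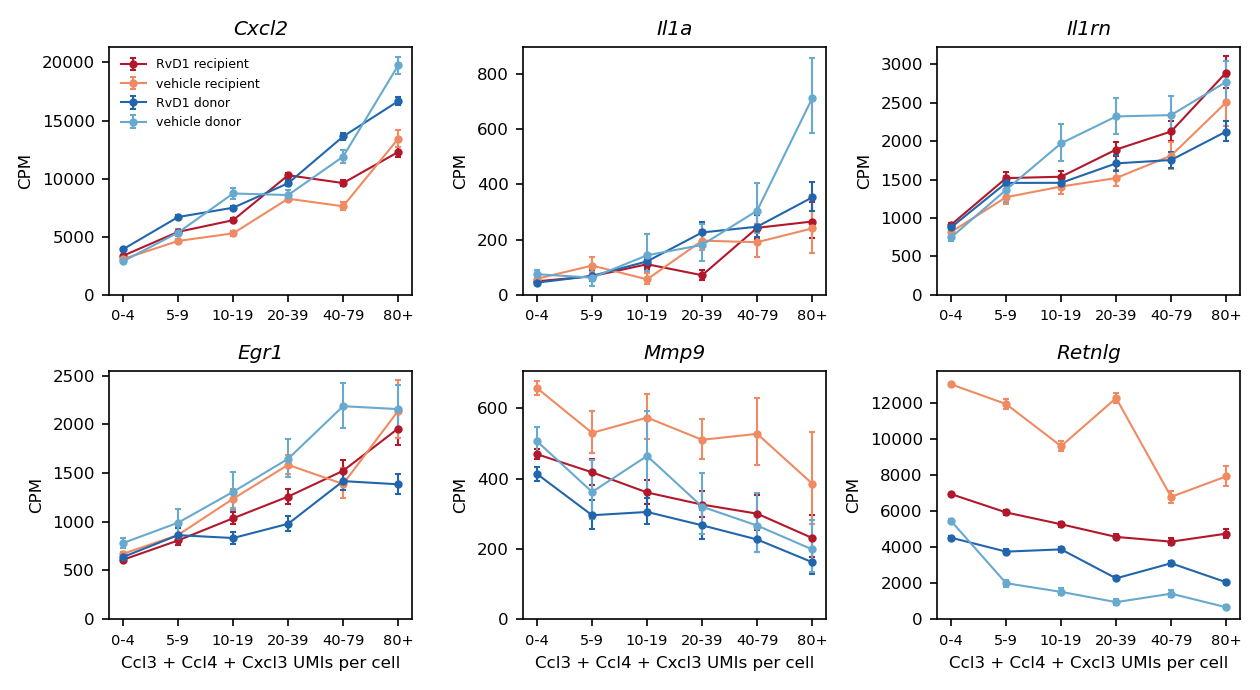
CPM of 6 genes is plotted against the UMIs of Ccl3, Ccl4 and Cxcl3 per cell in bins, 1 line a library, with exact 95% Poisson intervals for counting error. Cxcl2, Il1a, Il1rn and Egr1 are higher in the top than in the lowest bin of every library and Mmp9 and Retnlg lower, with uneven steps between, with 16 cells in the top bin of the vehicle recipient library.

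Within the chemokine-high cells, RvD1 was set against vehicle separately in recipient and donor cells, and a gene was called at 1.5-fold or more in the same direction in both. With 1 library a group and the software version confounded, this describes the libraries and cannot show whether treatment moved RNA in these cells. Of 2337 genes, 71 (3.04%) were higher and 105 (4.49%) lower, and at 2-fold 9 (0.385%) were higher and 31 (1.33%) lower. Csf1, which encodes the macrophage growth factor M-CSF, was at 496 CPM in RvD1 recipient and 237 in vehicle recipient cells, and at 754 in RvD1 donor and 352 in vehicle donor cells. Its log2 ratios were 1.07 (95% interval 0.85 to 1.29) and 1.10 (0.87 to 1.34) in recipient and donor cells, against 0.47 and 0.69 in other neutrophils. Gsdme was at 48.0 CPM in RvD1 recipient and 23.8 in vehicle recipient cells, and at 59.6 in RvD1 donor and 14.4 in vehicle donor cells. Its log2 ratios were 1.01 (0.32 to 1.77) and 2.05 (0.96 to 3.4), against -0.14 and 0.24 in other neutrophils, and whether the classes differ was not tested. Fbxw11, a ubiquitin ligase subunit, had 1.47 and 1.47, Sel1l, of endoplasmic reticulum protein degradation, 1.23 and 1.47, and Cdh23, a cadherin, 1.31 and 1.5 in recipient and donor cells. Mllt10, Gtf2e2, Bnip2, Lrch3 and Tsc22d4 completed the 10, at 0.99 to 1.42.

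Hmox1, Atp6v1h and Enthd1 were among the genes lower in RvD1 cells. Hmox1, haem oxygenase 1, was at 30.2 CPM in RvD1 recipient and 90.9 in vehicle recipient chemokine-high cells, and at 89.4 in RvD1 donor and 352 in vehicle donor cells. The log2 ratios were -1.59 (-2.13 to -1.07) and -1.98 (-2.30 to -1.66), but 1 vehicle donor cell held 42.1% of the 171 Hmox1 UMIs of that library. Against vehicle, in neutrophils that met the Ifit and Fnip2 conditions and were not chemokine-high, Hmox1 had -1.05 and -0.44. Atp6v1h, a subunit of the vacuolar proton pump, was at 43.7 CPM in RvD1 recipient and 139.5 in vehicle recipient cells, and at 55.2 in RvD1 donor and 204 in vehicle donor cells, and the subunit Atp6v1c1 had log2 ratios of -1.45 and -1.34. Enthd1 had the widest gap, at 12.9 CPM in RvD1 recipient and 116 in vehicle recipient cells, and 18.2 in RvD1 donor and 146 in vehicle donor cells. Slc23a2, a vitamin C transporter, had log2 ratios of -2.32 and -2.26, and Irs2, an insulin receptor substrate, -1.75 and -1.82. Enthd1 had -3.66 and -2.98 in other neutrophils too, and Atp6v1h -2.17 and -1.93, so that the gap was present outside the chemokine-high cells as well. Slc49a4, Impact, Eya3 and Mpp1 completed the 10, at -2.17 to -1.31.

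Over all gene lists together, 4 of 217 described genes (1.84%) were higher and 6 (2.76%) lower in RvD1 than in vehicle chemokine-high cells, shares below the 3.04% and 4.49% of all genes. Csf1 and Il18 were higher among 10 described cytokines, Dusp6, a phosphatase of ERK, among 12 feedback genes, and Gsdme among 4 inflammasome genes. Hk3 and Hilpda were lower among 20 glycolysis and hypoxia genes, Atf4 among 17 immediate early genes, Hmox1 among 15 antioxidant genes, Trem3 among 26 receptors and Irf1 among 9 interferon-stimulated genes. None of 27 NF-kB genes and none of the 4 other chemokines was called in either direction. The rule's own chemokines had RvD1 over vehicle log2 ratios of -0.26 and -0.21 for Ccl3, 0.49 and 0.17 for Ccl4 and 0.41 and 0.18 for Cxcl3 in recipient and donor cells.

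Recipient over donor, with each contrast inside 1 treatment and 1 software version, used the same 4 libraries. Of 1777 genes, 51 (2.87%) were higher and 50 (2.81%) lower in recipient chemokine-high cells under both RvD1 and vehicle. At 2-fold, 6 (0.338%) were higher and 9 (0.506%) lower. Mmp8, the neutrophil collagenase of specific granules, was at 676 CPM in RvD1 recipient and 196 in RvD1 donor cells, and at 716 in vehicle recipient and 43.2 in vehicle donor cells. The log2 ratios were 1.78 (1.61 to 1.96) and 4.05 (3.43 to 4.75), against 1.16 and 1.87 in other neutrophils. Retnlg, a resistin-like granule product, was at 4524 CPM in RvD1 recipient and 2514 in RvD1 donor cells, and at 10472 in vehicle recipient and 1005 in vehicle donor cells. Vehicle donor chemokine-high cells were thus the lowest in both genes. Scrg1 had log2 ratios of 1.72 and 2.58 under RvD1 and vehicle, Aldh2, the mitochondrial aldehyde dehydrogenase, 1.39 and 1.56, and Lrrk2, a kinase, 1.62 and 1.25. Bcas3, Pak1, Ccpg1, Lrg1 and Arl15 completed the 10, at 0.84 to 1.42.

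Wfdc17, F10, Hmox1 and Sqstm1 were among the genes lower in recipient cells. Wfdc17, a small secreted protein, was at 738 CPM in RvD1 recipient and 2520 in RvD1 donor cells, and at 393 in vehicle recipient and 1326 in vehicle donor cells. F10, coagulation factor X, had log2 ratios of -1.78 and -1.98 under RvD1 and vehicle, and Hmox1 -1.57 and -1.95. Sqstm1, the autophagy receptor p62, was at 265 CPM in RvD1 recipient and 536 in RvD1 donor cells, and at 202 in vehicle recipient and 659 in vehicle donor cells. Mitf, a factor of lysosomal genes, had -1.15 and -1.35, with -0.24 and -0.06 in other neutrophils. Dach1, Slc31a2, Pecam1, Vim and Cd74 completed the 10. The Cd74 ratio of -2.50 under RvD1 rests on 1 RvD1 donor cell with 75.2% of the Cd74 UMIs of its class. Over all gene lists together, 6 of 190 described genes (3.16%) were higher and 9 (4.74%) lower, beside 2.87% and 2.81% of all genes. Among 9 described cytokines, 3 were lower in recipient cells, with log2 ratios of -1.02 and -0.97 for Tnf, -0.81 and -0.97 for Il1a and -0.68 and -1.18 for Tgfb1. Traf1 was lower among 26 NF-kB genes, Jun among 14 immediate early genes, Zfp36l1 among 12 feedback genes and Pecam1 among 14 adhesion genes. Mmp8 and Retnlg were higher among 10 granule genes and Slc2a3 and Bnip3l among 13 glycolysis and hypoxia genes. Of 14 antioxidant genes, Gpx4 and Mt1 were higher and Hmox1 and Sqstm1 lower. The rule's own Ccl3 had -1.07 and -1.01 under RvD1 and vehicle, Ccl4 -0.34 and -0.65 and Cxcl3 -0.37 and -0.61.

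**Figure D5:**
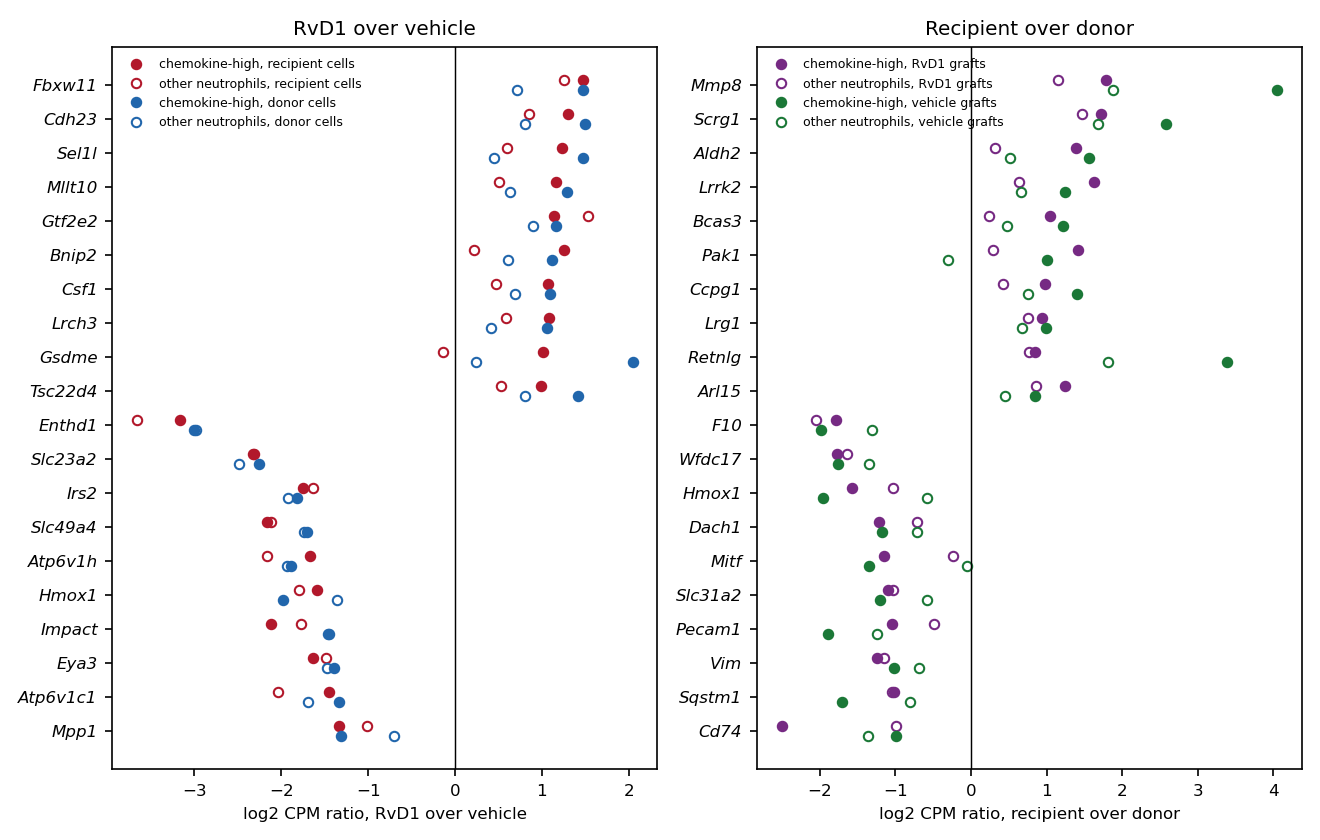
Log2 CPM ratios of RvD1 over vehicle (left) and recipient over donor (right) are shown for the 10 genes ranked as higher and the 10 ranked as lower in chemokine-high cells. Filled points are chemokine-high cells and open points other neutrophils, and open points of Enthd1 lie at -3.66 and -2.98, beside filled ones at -3.16 and -3.01.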

How the data were processed

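CD45+ leukocytes were profiled by droplet-based 3' single-cell RNA-seq (10x Genomics v3), per the labels' protocols. The authors deposited raw UMI counts per gene and barcode for 32285 genes, from Cell Ranger 7.0.1 (RvD1) or 6.1.1 (vehicle), per the file headers. The submitters' processing notes name mm10 and Seurat 4.0.0. The sources used here do not say whether intron reads were counted or doublets removed before deposit.

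UMI counts were summed per class and library with Python 3.11.15, numpy 2.4.6, scipy 1.17.1 and pandas 2.3.3, and set over the summed total as CPM. No pseudocount was used, and the floor for a sum of 0 was 3 counts. Members against other neutrophils needed 100 UMIs over both classes in each library, and RvD1 over vehicle and recipient over donor 100 UMIs over the 2 libraries of each contrast. The comparison of Ccl3 and Ccl4-led with Cxcl3-led cells needed 50 UMIs. Intervals are exact 95% binomial ones for counts and shares and the Katz log interval for a ratio of shares. They cover counting error only. Doublets were called per library with Scrublet (scanpy 1.11.5, expecting 0.8% for every 1000 cells) and kept, with their removal as an alternative.

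Genes were named by rank of their smallest absolute log2 ratio among called genes (15 a direction against other neutrophils, 10 within members). Ribosomal, mitochondrial, haemoglobin, sex-linked, antigen receptor and unnamed genes were left out of that ranking. Up to 6 genes with the largest mean ratio per list, all other chemokines and the genes of the rule were added. The members and lists were chosen with earlier results of these data known. Single genes outside these sets were named after their values were seen where they bear on a count. The ratio and call steps were tested on simulated data. Alternatives covered the chemokine cut, each condition, depth, doublets, filters, scaling and fold.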

Additional observations from a re-analysis of the deposited data

Results flagged for a closer look

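Retnlg, a resistin-like granule gene, moved in opposite directions with treatment in the chemokine-high cells of the 2 origins. Its log2 ratio of RvD1 over vehicle was -1.21 in recipient cells, at 4524 CPM in RvD1 recipient and 10472 CPM in vehicle recipient cells. In donor cells it was 1.32, at 2514 CPM in RvD1 donor and 1005 CPM in vehicle donor cells. Neutrophils that failed the Ifit or Fnip2 condition and had few chemokine UMIs were at 4952 CPM in RvD1 recipient and 8973 in vehicle recipient libraries. In donor libraries they were at 3337 CPM under RvD1 and 2919 under vehicle. Chemokine-rich ones were at 1589 CPM in RvD1 recipient, 5838 in vehicle recipient, 1498 in RvD1 donor and 1331 in vehicle donor. Retnlg was thus lower under RvD1 in recipient cells outside the class too. With 1 library a group, the difference between origins was not tested.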

How the results depend on the processing

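No paired analysis was possible because each group is 1 library. For the share of chemokine-high cells, the log2 ratio of RvD1 over vehicle was 1.08 in recipient and 1.45 in donor cells. Without the Fnip2 condition it reversed to -0.20 and -0.11, without both conditions (added after seeing the data) to -0.27 and -0.16, and among neutrophils that met both it was 0.075 and 0.11. A cut of 40 UMIs gave 1.43 in recipient cells. Recipient over donor was -0.81 under RvD1 and -0.45 under vehicle. It was -0.58 under RvD1 and -0.13 under vehicle (interval -0.44 to 0.17) at a cut of 10, and -1.28 under RvD1 and -1.27 under vehicle at 40. The other values were -1.07 and -0.98 without the Fnip2 condition, -1.11 and -1.08 among neutrophils that met both and -1.08 and -0.97 without both.

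Against other neutrophils, 26 genes were higher and 77 lower. The counts were 16 and 44 at a cut of 10, 42 and 143 at 0.4% of UMIs, and 55 and 47 against neutrophils that met both conditions. Centring gave 60 and 24, and a fold of 2 gave 5 and 5. Higher genes were 64 without the Fnip2 condition and 70 without both, and lower genes 119 at a cut of 40 and 117 at a minimum of 50 UMIs. Without the Fnip2 condition, 16 of the 26 higher and 25 of the 77 lower genes were called again, and at a cut of 40, 17 and 48. Within members, RvD1 over vehicle gave 71 higher and 105 lower genes. The counts were 133 and 345 without the Fnip2 condition, 154 and 359 without both, 141 and 171 at a minimum of 50 UMIs, 24 and 52 at 200 and 9 and 31 at a fold of 2, with 66 lower at a cut of 40. Of the 71 higher and 105 lower genes, 31 and 86 were called again without the Fnip2 condition, and 21 and 35 at a cut of 40. Recipient over donor gave 51 and 50. The counts were 14 and 20 at a cut of 40, 28 and 32 at 0.4% of UMIs, 23 and 32 at a minimum of 200 UMIs and 6 and 9 at a fold of 2. At a cut of 40, 8 of the 51 higher and 15 of the 50 lower genes were called again. Lower genes alone were 120 without the Fnip2 condition, 115 without both and 87 at a minimum of 50 UMIs.

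Of the genes named, the mean log2 ratio against other neutrophils reversed for Npc1 (0.039 without the Fnip2 condition, 0.063 without both) and Plcb1 (0.83 and 0.70). The other settings for named genes moved 193 values against other neutrophils, 114 for RvD1 over vehicle and 125 for recipient over donor beyond their interval, and no called value among them changed sign. Values that stayed the same numbered 1308, 1064 and 1003 in that order. Fewer genes are described at a higher minimum. The causes of the other shifts were not tested. The 85 vehicle donor cells, with 485660 UMIs, limit every contrast.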

Other observations

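Chemokine-rich neutrophils outside the rule, which had 20 or more UMIs of Ccl3, Ccl4 and Cxcl3 but failed the Ifit or the Fnip2 condition, carried much of the same RNA. Cxcl2 was at 12845 CPM in RvD1 recipient, 6925 in vehicle recipient, 9988 in RvD1 donor and 8579 in vehicle donor cells of that kind, against 3955, 2992, 4559 and 3539 CPM in neutrophils that failed a condition and had under 20 chemokine UMIs. Il1a was at 224 CPM in RvD1 recipient, 280 in vehicle recipient, 90.9 in RvD1 donor and 300 in vehicle donor cells, against 29.4, 78.3, 29.0 and 82.6 CPM. Of 2190 genes described in both comparisons, 24 were called higher in these cells and 47 in the chemokine-high cells of the rule, each against neutrophils of their own kind. The 20 genes shared are 83.3% of the 24 and 42.6% of the 47. Of the lower genes, 14 were shared by lists of 27 and 38.

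Ccl6, a CC chemokine outside the rule, was at 1861 CPM in RvD1 recipient, 1915 in vehicle recipient, 1672 in RvD1 donor and 1143 in vehicle donor chemokine-high cells, against 1684, 1772, 1237 and 1091 CPM in other neutrophils. Some other chemokine and cytokine RNA came from few cells. Cxcl1, the CXCR2 ligand beside Cxcl2, had 11 UMIs in 9 RvD1 recipient, 9 in 5 vehicle recipient, 73 in 11 RvD1 donor and 14 in 5 vehicle donor chemokine-high cells. Of 164 Ccl17 UMIs in RvD1 donor chemokine-high cells, 1 cell held 97.0%, and 1 cell held 96.1% of the 76 Ccl5 UMIs of vehicle recipient cells. Il6 had 18 UMIs in 1 RvD1 recipient cell, 0 in vehicle recipient, 43 in RvD1 donor and 1 in vehicle donor chemokine-high cells.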
